A study of Mus musculus with 24 samples.

Results

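The comparison is between the control livers of 2 mouse models, both with Foxo1 intact and both fasted for 4 h. The virus-GFP group is Foxo1lox/lox mice given AAV8.TBG.eGFP by tail vein and collected on day 21 after the injection. The untreated group is the Foxo1lox/lox control mice of the Albumin-cre model, which carry the floxed alleles without the Cre transgene and have no virus recorded in the labels. The members were taken from the sample titles: 3 libraries of each group, 6 of the 24 libraries of the series.

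All mice are labelled C57BL/6, the tissue is whole liver, and age and sex are not given in the labels. TBG is a promoter active in hepatocytes, so GFP is made in that cell type, while RNA was taken from all cells of the liver. The rest of the series holds the same controls refed for 1 h after the fast and the matching FoxO1-deleted livers, made with AAV8.TBG.Cre or with Albumin-cre, in both feeding states with 3 libraries each. Only the mice of one model received a virus, so the virus and any other difference between the 2 models cannot be told apart.

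Adeno-associated virus of serotype AAV8 delivers a gene to hepatocytes, where it stays mostly outside the chromosomes and drives expression for weeks. A virus carrying GFP is the usual control for a virus carrying Cre, since injection, capsid and foreign protein are then shared. FoxO1 is a transcription factor that insulin excludes from the nucleus, and in the fasted liver it drives genes of glucose production such as G6pc and Pck1, the insulin receptor substrate Irs2 and the secreted binding protein Igfbp1.

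Levels are in FPKM, the authors' deposited unit, which divides a locus's fragments by transcript length and by the size of the library. Differences are virus-GFP minus untreated on the log2(FPKM + 1) scale, which understates the change of low genes, with the standard error (SE) of a limma fit. A locus is called when its Benjamini-Hochberg adjusted p over the 10682 loci tested is under 0.05. The labels do not tell whether the 3 libraries of a group are separate animals, and p-values cover only the spread among these libraries, which may be technical.

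Depth varied more among the virus-GFP libraries than among the untreated ones. The fragments implied by the authors' confidence intervals came to 6278000 and 6874000 in virus-GFP livers 1 and 2, against 14414000 in virus-GFP liver 3. The untreated livers held 12106000, 12241000 and 13323000, so 2 of the 3 virus-GFP libraries were shallower than every untreated one and the other was deeper. Loci above 0 numbered 14693, 14545 and 15359 in the virus-GFP livers and 15436, 15349 and 15380 in the untreated livers, which places the deep virus-GFP library among the untreated ones. The groups' relative depths gave p = 0.4 in a two-sided exact permutation test, where 3 against 3 libraries cannot go below 0.1. Virus-GFP liver 3 is called the depth-matched library.

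**Figure D1:**
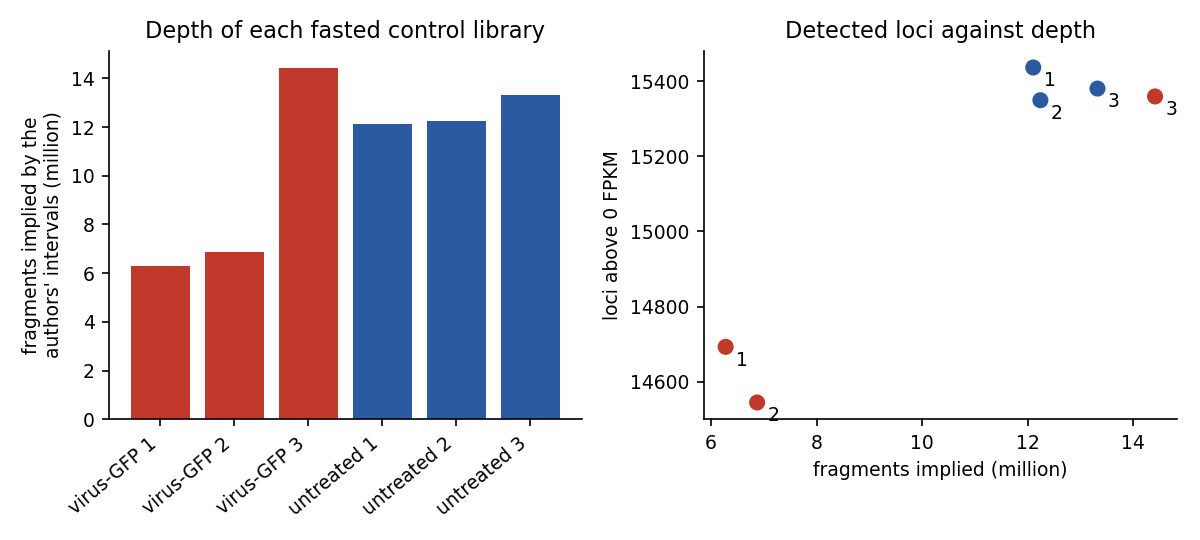
Left, fragments implied by the authors' confidence intervals in each fasted control library (bars; red, virus-GFP; blue, untreated). Right, loci above 0 FPKM against those fragments, with the replicate number beside each point: virus-GFP livers 1 and 2 lie at 14693 and 14545 loci, virus-GFP liver 3 and the untreated livers between 15349 and 15436.

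The targeted gene matched the labels. Foxo1 (chr3:52268337-52350109) stood at 4.49, 4.33 and 4.58 FPKM in the virus-GFP livers and at 4.21, 5.87 and 5.92 FPKM in the untreated livers, and the groups overlapped (log2 difference -0.20 ± 0.11 SE, limma adjusted p = 0.492). In the fasted livers with FoxO1 deleted it lay between 0.212 and 0.494 FPKM. The hepatocyte markers Alb, Ttr, Apoa1, Serpina1a, Ahsg, Tf, Fgb and Hnf4a summed to 74810, 70590 and 73260 FPKM in the virus-GFP livers and to 63770, 74740 and 67080 FPKM in the untreated livers.

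The 2 kinds of control liver were close across the transcriptome. Of 10682 loci, 96.3% differed by less than 0.5 on the log2 scale, and the median difference was 0.01. Pearson's r of log2 values across loci ran from 0.968 to 0.978 between a virus-GFP and an untreated library, from 0.971 to 0.979 among virus-GFP libraries and from 0.976 to 0.983 among untreated ones, with loci not being independent replicates. In limma, 11 loci were called, 0.103% of those tested, with 7 higher in virus-GFP livers (0.0655%) and 4 lower (0.0374%). At an unadjusted p under 0.05 there were 1252 loci (11.7%), and the 3 values of one group lay outside the range of the other at 1613 loci (15.1%). Among 1469 loci with more than 1000 mean fragments these shares were 15.7% and 19.7%. With no difference, shares of 0.05 and 0.1 would be due on average, so the few calls do not show that the controls are the same.

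**Figure D2:**
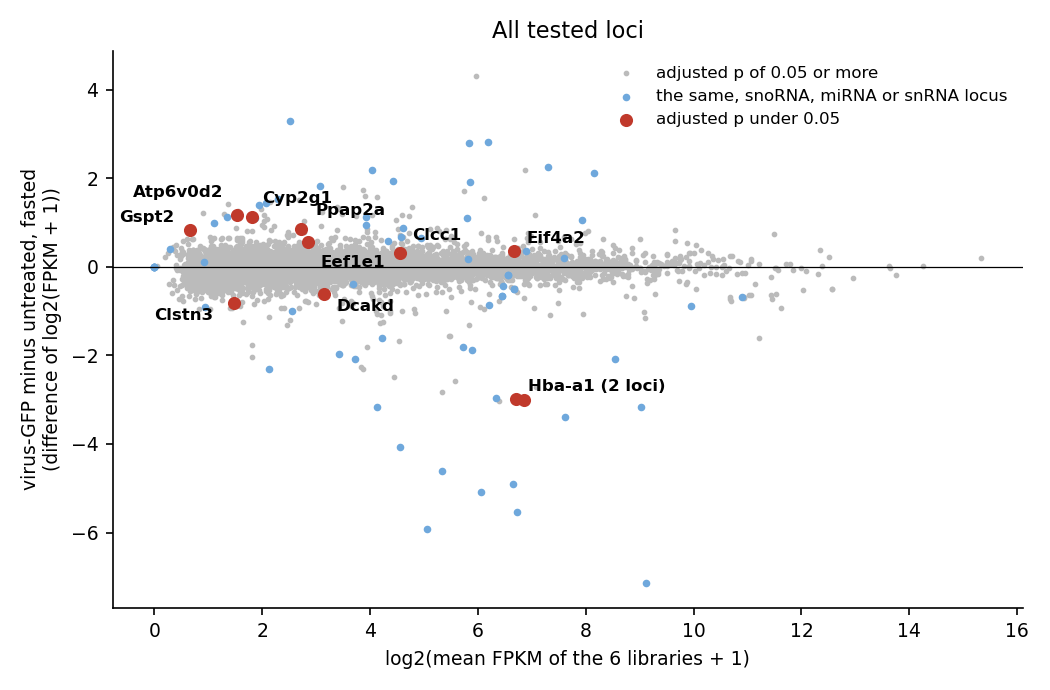
Difference of log2(FPKM + 1), virus-GFP minus untreated, fasted, against log2 of the mean FPKM of the 6 libraries + 1, for all 10682 tested loci. The 11 called loci (red, named) include 2 loci of Hba-a1 near -3, and 20 of the 32 loci at 2 or more from equal are small RNA loci (blue), none of them called.

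The smallest adjusted p belonged to a gene of lipid metabolism. Ppap2a (chr13:112800792-112867680), a lipid phosphate phosphatase of the plasma membrane now named Plpp1, measured 8.91, 6.03 and 7.49 FPKM in virus-GFP livers against 3.69, 3.73 and 3.62 FPKM in untreated livers. Every virus-GFP value exceeded every untreated one, by 2.03-fold on the means (log2 difference 0.84 ± 0.12 SE, limma adjusted p = 0.0128). The depth-matched liver 3 lay between the other two.

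Eef1e1 (chr13:38645691-38659028), a non-catalytic part of the complex that charges transfer RNAs, read 8.46, 7.39 and 6.88 FPKM in virus-GFP livers and 4.53, 4.90 and 4.97 FPKM in untreated livers. The groups did not overlap (0.56 ± 0.10 SE, limma adjusted p = 0.0446), and virus-GFP liver 3 was the lowest of its group. Eif4a2 (chr16:23107479-23114132), an RNA helicase of translation initiation, had the highest level of the called genes that rose, at 118, 116 and 105 FPKM against 90.9, 85.6 and 88.4 FPKM. Its difference was small but tight (0.35 ± 0.07 SE, limma adjusted p = 0.0446), again without overlap.

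Gspt2 (chrX:94636069-94638561), a translation termination factor, was near the detection limit in untreated livers, at 0.218, 0.0977 and 0.131 FPKM, and at 1.17, 0.837 and 1.10 FPKM in virus-GFP livers. Its ratio of means was 6.95, the largest of the called genes that rose (0.82 ± 0.15 SE, limma adjusted p = 0.0446), and it rests on 4.00 to 52.7 implied fragments per library. A locus needed 1 FPKM in 3 of the 24 libraries to be tested, and Gspt2 fell short without virus-GFP liver 1 or 3. The values that give its difference thus also let it into the test, and its call is no independent support. Clcc1 (chr3:108653913-108678840), a chloride channel of the endoplasmic reticulum, gave 25.6, 25.2 and 24.1 FPKM against 19.2, 21.2 and 19.2 FPKM, also without overlap (0.32 ± 0.06 SE, limma adjusted p = 0.0446).

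Cyp2g1 (chr7:26808927-26821197), a cytochrome P450 best known from the olfactory mucosa, measured 4.00, 2.998 and 4.39 FPKM in virus-GFP livers and 1.38, 1.02 and 1.18 FPKM in untreated livers. All 3 virus-GFP values were higher, liver 3 most of all (1.12 ± 0.19 SE, limma adjusted p = 0.0404). Atp6v0d2 (chr4:19876838-19922566), a subunit of the proton pump of acidic organelles that is higher in female than in male mouse liver, stood at 3.89, 3.24 and 1.96 FPKM against 0.434, 1.29 and 0.672 FPKM. Here the depth-matched library was the nearest to the untreated group, though still above all of it (1.16 ± 0.21 SE, limma adjusted p = 0.0446).

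Among the called loci that were lower, Clstn3 (chr6:124430756-124464784), a membrane protein of the calsyntenin family, measured 1.06, 0.821 and 1.16 FPKM in virus-GFP livers and 2.49, 2.78 and 2.35 FPKM in untreated livers. The virus-GFP values were all below the untreated ones (-0.82 ± 0.14 SE, limma adjusted p = 0.0446). Dcakd (chr11:102994056-103017147), which carries a dephospho-CoA kinase domain, read 6.37, 5.15 and 6.59 FPKM against 10.7, 10.3 and 8.23 FPKM, without overlap (-0.61 ± 0.12 SE, limma adjusted p = 0.0446).

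The other called loci that were lower are the 2 copies of Hba-a1, the adult alpha globin, at chr11:32283672-32284486 and chr11:32296489-32297303. The first copy stood at 12.1, 65.5 and 14.0 FPKM in virus-GFP livers and at 133, 287 and 176 FPKM in untreated livers, and the second at 11.1, 59.5 and 12.2 FPKM against 115, 264 and 156 FPKM. Every virus-GFP value was below every untreated one, by 6.51-fold and 6.46-fold on the means, and virus-GFP liver 2 lay nearest to the untreated group (-3.01 ± 0.58 SE and -2.99 ± 0.57 SE, limma adjusted p = 0.0446 for both). The copies are nearly identical, so reads cannot be assigned to one with certainty and they count as 1 observation.

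**Figure D3:**
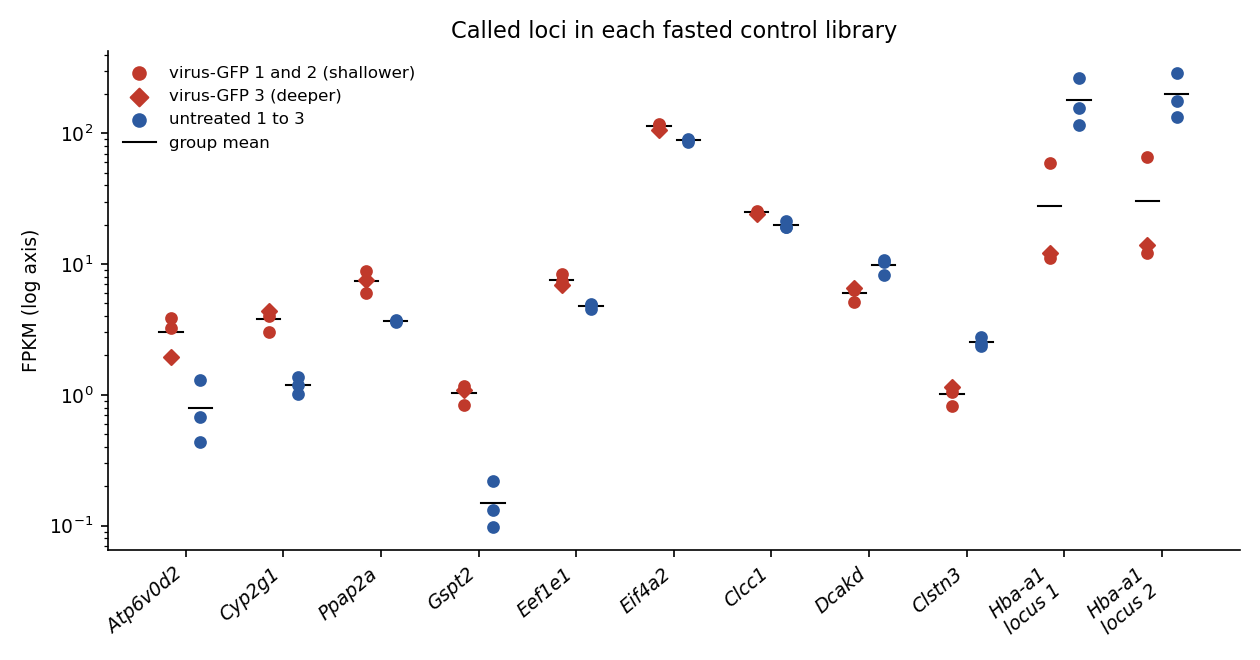
FPKM (log axis) of the 11 called loci in each of the 6 fasted control libraries: red circles, virus-GFP livers 1 and 2; red diamonds, virus-GFP liver 3, which is as deep as the untreated libraries; blue circles, untreated livers; black lines, group means. The groups do not overlap at any of the 11 loci.

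The 11 loci were refitted with depth taken into account. A fit over all 24 libraries with log2 of relative depth as a covariate called 357 loci for depth itself (3.34% of those tested) and 245 of these were lower in deeper libraries. In that fit the group difference kept its sign at 11 of 11 loci, at 0.823 to 1.15 times its size, and 3 of them (Ppap2a, Cyp2g1 and Gspt2) were still called. Gspt2 was among the tested loci only through virus-GFP livers 1 and 3.

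With virus-GFP liver 3 as the only library of its group, the 10 loci that could be tested kept their sign, at 0.641 to 1.23 times the size, and 0 of the 11 was called, in a fit where that library is assumed to vary like the other groups. That fit called 2 other loci, the beta globins Hbb-b1 (-4.79 ± 0.59 SE, limma adjusted p = 0.0025) and Beta-s (-4.06 ± 0.58 SE, limma adjusted p = 0.0095). With the 2 shallower libraries alone, 10 of 10 kept their sign and 6 were called. The groups did not overlap at any of the 11 loci, so no sign could change in either of these 2 fits. The kept signs therefore say nothing about depth. Gspt2 passed the filter on low values in neither fit. By depth of the locus, 5 of 2733 loci with fewer than 100 mean fragments were called, 5 of 6480 loci with 100 to 1000, and 1 of 1469 above that.

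The calls rest on few libraries. Without virus-GFP liver 1, untreated liver 1 or untreated liver 2, limma called 0 loci. The count was 3 without untreated liver 3, 8 without virus-GFP liver 2 and 14 without virus-GFP liver 3. Ppap2a kept its call under 11 of 17 other settings, with a difference between 0.72 and 0.99 throughout. The other called loci kept theirs less often, from 3 of 18 settings for Clcc1 to 6 of 17 for Clstn3. Keeping only the shallower virus-GFP libraries and leaving out virus-GFP liver 3 are the same fit. These tallies count it under both names wherever the locus was tested. No called locus changed sign under a setting in which it was tested, though leaving out libraries could not change it where groups do not overlap. A fit of the 6 libraries alone called 2 loci, none of them among the 11.

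Among FoxO1's own targets, the control livers gave no call. Of 19 target genes tested, 12 were above 0 and 7 below, with a median difference of 0.08 beside 0.01 for all loci, and 4 were higher without overlap (8.35% of all loci were). Irs2 came nearest to a call, at 3.43, 3.78 and 5.51 FPKM in virus-GFP livers against 1.80, 1.58 and 1.70 FPKM. All 3 virus-GFP values were above all untreated ones, the depth-matched library the most (0.94 ± 0.20 SE, limma adjusted p = 0.0768).

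G6pc, the phosphatase that releases glucose from the liver, read 167, 177 and 191 FPKM in virus-GFP livers and 362, 189 and 217 FPKM in untreated livers, where the first library alone stood apart (-0.46 ± 0.37 SE, limma adjusted p = 0.652). Pck1, the gatekeeping enzyme of gluconeogenesis, read 1109, 991 and 1161 FPKM against 995, 1252 and 1082 FPKM, fully interleaved (-0.03 ± 0.28 SE, limma adjusted p = 0.981). Igfbp1 also overlapped, at 85.5, 43.6 and 78.4 FPKM against 59.1, 68.1 and 50.2 FPKM (0.18 ± 0.56 SE, limma adjusted p = 0.927).

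The other metabolic genes followed singly had differences of 0.23 for Foxo3, 0.26 for Ppargc1a, a coactivator of fasting genes, -0.17 for the bile acid enzyme Cyp7a1, 0.21 for the lipogenic regulator Srebf1 and 0.19 for albumin (Alb), none called. Fgf21, a hormone of fasting, was low, at 0.453, 0.408 and 0.128 FPKM against 0.974, 0.680 and 1.08 FPKM. Its virus-GFP values all lay below the untreated ones without a call (-0.53 ± 0.23 SE, limma adjusted p = 0.398).

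Genes that report a viral or DNA-damage response gave no call. Of 31 interferon-response genes tested, 20 were above 0 and 11 below, with a median of 0.06, 2 higher and 1 lower without overlap (8.35% and 6.75% of all loci were). Isg15, a ubiquitin-like interferon product, read 11.8, 8.45 and 11.03 FPKM against 11.1, 6.11 and 9.45 FPKM, Ifit1 2.59, 1.33 and 2.25 FPKM against 2.60, 1.58 and 2.09 FPKM, and both overlapped.

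Of 16 antigen-presentation genes, 5 were above 0 and 11 below (median -0.15), and of 8 genes of the p53 response 6 were above 0 and 2 below (median 0.09), without a call in either. Markers of T and NK cells were mostly below the filter: 1 of 14 was tested, and the summed level ran from 1.76 to 4.94 FPKM in virus-GFP livers and from 4.39 to 5.54 FPKM in untreated livers. Markers of B and plasma cells summed to 1.06 to 1.73 FPKM against 3.001 to 4.30 FPKM, without overlap (two-sided exact permutation test p = 0.1, the smallest possible).

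Among the markers of red cells, the alpha globin loci were called lower in virus-GFP livers and no other marker was called. In bulk RNA, fewer cells of a type and less RNA per cell cannot be told apart. Of 8 erythroid loci tested, 7 were below 0 and 2 were called, both Hba-a1 (0.0374% of all loci were called lower), with a list median of -2.50. The list's summed level was 57.8, 424 and 53.4 FPKM in virus-GFP livers and 491, 1111 and 696 FPKM in untreated livers (two-sided exact permutation test p = 0.1). Virus-GFP liver 2 thus approached the lowest untreated liver.

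Beta-s, a beta globin locus, shows the same order, at 17.0, 137 and 11.1 FPKM against 133, 312 and 196 FPKM, and overlapped through virus-GFP liver 2 (-2.70 ± 0.63 SE, limma adjusted p = 0.109). Alas2, the first enzyme of heme synthesis in red cell precursors, differed far less, at 7.56, 7.24 and 9.16 FPKM against 9.13, 10.9 and 10.8 FPKM. Single libraries moved the list's median and its calls. Without virus-GFP liver 2 the median was -3.77 with 4 loci called lower, without virus-GFP liver 1 it was -1.88 and without virus-GFP liver 3 it was -1.73, with no call in either. It was -3.82 with 2 calls in the depth-matched library alone and -2.72 with no call with the depth term. Leaving out any 1 untreated liver also left no call, with medians from -2.79 to -2.26.

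All 12 macrophage and Kupffer cell markers tested were below 0, none called, with a median of -0.67, and 6 were lower without overlap (6.75% of all loci were). C1qc, a chain of the complement component made by macrophages, read 11.5, 11.2 and 14.5 FPKM in virus-GFP livers and 18.5, 28.2 and 34.3 FPKM in untreated livers (-1.03 ± 0.42 SE, limma adjusted p = 0.361). Clec4f, a lectin particular to Kupffer cells, read 10.6, 7.35 and 13.1 FPKM against 13.9, 26.4 and 25.8 FPKM (-0.997 ± 0.45 SE, limma adjusted p = 0.408). In both genes untreated liver 1 was the nearest to the virus-GFP group and the groups did not overlap.

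The summed level of the 12 macrophage markers was 73.8 ± 14.4 FPKM (SD, n = 3) in virus-GFP livers and 139 ± 40.5 FPKM (SD, n = 3) in untreated livers, without overlap (two-sided exact permutation test p = 0.1). The list's median was -0.34 with the depth term, with 10 of 12 below 0, and -0.47 in the depth-matched library alone, with 11 of 12 below 0. Leaving out 1 library moved it about as much, from -0.47 without virus-GFP liver 2 to -0.90 without untreated liver 1. Sinusoidal endothelial markers lay on the other side, with 10 of 10 above 0, a median of 0.33, no call and no gene without overlap. Virus-GFP liver 2 was just below the untreated range there, at a summed 45.7 FPKM against 92.6 FPKM in both other virus-GFP livers and 47.6 to 54.6 FPKM in the untreated ones.

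Genes that differ between the sexes in mouse liver, where pulses of growth hormone set the male pattern, were spread unevenly over the virus-GFP livers. All 6 libraries carried the Y-linked RNA helicase Ddx3y, at 9.06, 7.58 and 7.75 FPKM and at 5.76, 6.42 and 8.67 FPKM, while Xist, the RNA of the inactive X chromosome, did not exceed 0.0158 FPKM in any. Of 16 male-biased genes tested, 15 were below 0, none called, with a median of -0.98 and 6 lower without overlap (6.75% of all loci). Of 12 female-biased genes, 8 were above 0, with a median of 1.12, 4 higher without overlap (8.35% of all loci) and 1 called, Atp6v0d2 (0.0655% of all loci were called higher).

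Cyp4a12a, a male-specific fatty acid hydroxylase, measured 7.26, 9.09 and 27.1 FPKM in virus-GFP livers and 92.5, 72.0 and 71.8 FPKM in untreated livers (-2.58 ± 0.73 SE, limma adjusted p = 0.188). Mup20, the urinary pheromone protein darcin, measured 1008, 1492 and 925 FPKM against 4646, 2245 and 3852 FPKM (-1.62 ± 0.48 SE, limma adjusted p = 0.221). Cyp2d9, a male-biased steroid hydroxylase, stood at 171, 406 and 491 FPKM against 868, 658 and 678 FPKM (-1.17 ± 0.33 SE, limma adjusted p = 0.188). None of these 3 genes overlapped between the groups.

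On the female-biased side, Cyp17a1, a steroid hydroxylase, read 31.8, 18.6 and 14.2 FPKM against 6.41, 7.45 and 3.23 FPKM without overlap (1.73 ± 0.50 SE, limma adjusted p = 0.210). Cyp2b13 separated 1 library from the rest, with 55.6 FPKM in virus-GFP liver 1 against 1.12 and 1.47 FPKM in the others and at most 2.95 FPKM in untreated livers. Cyp2b9, its neighbour in the same P450 family, was likewise highest in virus-GFP liver 1, at 133, 41.5 and 58.4 FPKM against 8.58, 58.4 and 15.9 FPKM, and overlapped.

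Without virus-GFP liver 1 the male-biased median was -0.49, still with 15 of 16 below 0, and the female-biased median was 0.33 with 11 of 12 above 0. The depth-matched library alone gave -0.49 and 0.28. Where only loci with at least 10 FPKM in 3 of the 6 libraries were kept, the female-biased median was -0.30 over 7 loci.

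Immediate early genes, which growth factors and stress switch on within minutes, were mostly above 0. Of 19 tested, 16 were above 0 and 3 below, none called, with a median of 0.45, 9 higher and 2 lower without overlap (8.35% and 6.75% of all loci). Junb, a subunit of the AP-1 factor, read 38.2, 19.8 and 8.89 FPKM in virus-GFP livers and 7.26, 4.69 and 5.19 FPKM in untreated livers (1.60 ± 0.35 SE, limma adjusted p = 0.101). Egr1, a zinc finger factor of the same class, read 19.2, 4.36 and 3.48 FPKM against 2.03, 2.32 and 1.09 FPKM (1.51 ± 0.38 SE, limma adjusted p = 0.159).

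In both genes virus-GFP liver 1 stood highest and the depth-matched liver 3 was the lowest of its group, yet above the untreated ones. Nr4a1, an orphan nuclear receptor, had 6.15, 3.55 and 4.10 FPKM against 0.684, 1.80 and 1.32 FPKM, and Btg2, an antiproliferative factor, 7.61, 3.12 and 3.19 FPKM against 1.52, 1.81 and 1.42 FPKM, neither with overlap. Klf2, a factor of endothelial cells, lay on the other side at 1.80, 1.13 and 2.32 FPKM against 2.86, 2.50 and 3.03 FPKM (-0.49 ± 0.13 SE, limma adjusted p = 0.159). With the depth-matched library alone the list's median was 0.20, with 12 above 0 and 7 below; in the shallower libraries it was 0.65, with 1 member called higher (Junb) and 1 lower (Klf2). With the depth term the median was 0.31, with 15 above 0 and 4 below and none called.

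Genes of cholesterol synthesis were mostly above 0, and none was called. Of 24 genes tested, 23 were above 0, with a median of 0.34 and 2 higher without overlap (8.35% of all loci were). The median was 0.16 with the depth term and 0.14 without virus-GFP liver 1, each with 23 of 24 above 0, and 0.57 in the shallower libraries. With virus-GFP liver 3 as the only library of its group it was -0.12, with 8 above 0 and 16 below. Idi1, an isomerase of the isoprenoid steps, shows the order at 130, 94.1 and 42.7 FPKM in virus-GFP livers against 69.2, 35.8 and 59.1 FPKM, where only livers 1 and 2 exceeded the untreated range. Insig1, a sterol-responsive protein that holds back the pathway, was higher without overlap at 157, 119 and 91.9 FPKM against 90.4, 78.5 and 64.8 FPKM (0.63 ± 0.19 SE, limma adjusted p = 0.221).

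Of 18 clock genes, 17 were above 0 with a median of 0.25 and 3 higher without overlap (8.35% of all loci were), none called, and the median was 0.28 in the depth-matched library. Usp2, a clock-driven deubiquitinase, read 15.7, 16.9 and 17.2 FPKM against 5.44, 14.96 and 11.8 FPKM (0.68 ± 0.23 SE, limma adjusted p = 0.271). The value in untreated liver 1 stood lowest, and without that library the clock median was 0.16.

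Of 29 targets of PPAR-alpha, the receptor that turns on fat burning in fasting, 11 were above 0 and 18 below, with a median of -0.08 and 7 lower without overlap (6.75% of all loci were), none called. Plin2, which coats lipid droplets, read 234, 190 and 164 FPKM in virus-GFP livers and 290, 257 and 265 FPKM in untreated livers (-0.48 ± 0.16 SE, limma adjusted p = 0.261). Of the 50 lists followed, 2 held a call and 48 held none. Some could hardly hold one: the mitochondrially encoded list had 0 loci tested. The T and NK cell, adipocyte and pancreatic acinar marker lists had 1 each.

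**Figure D4:**
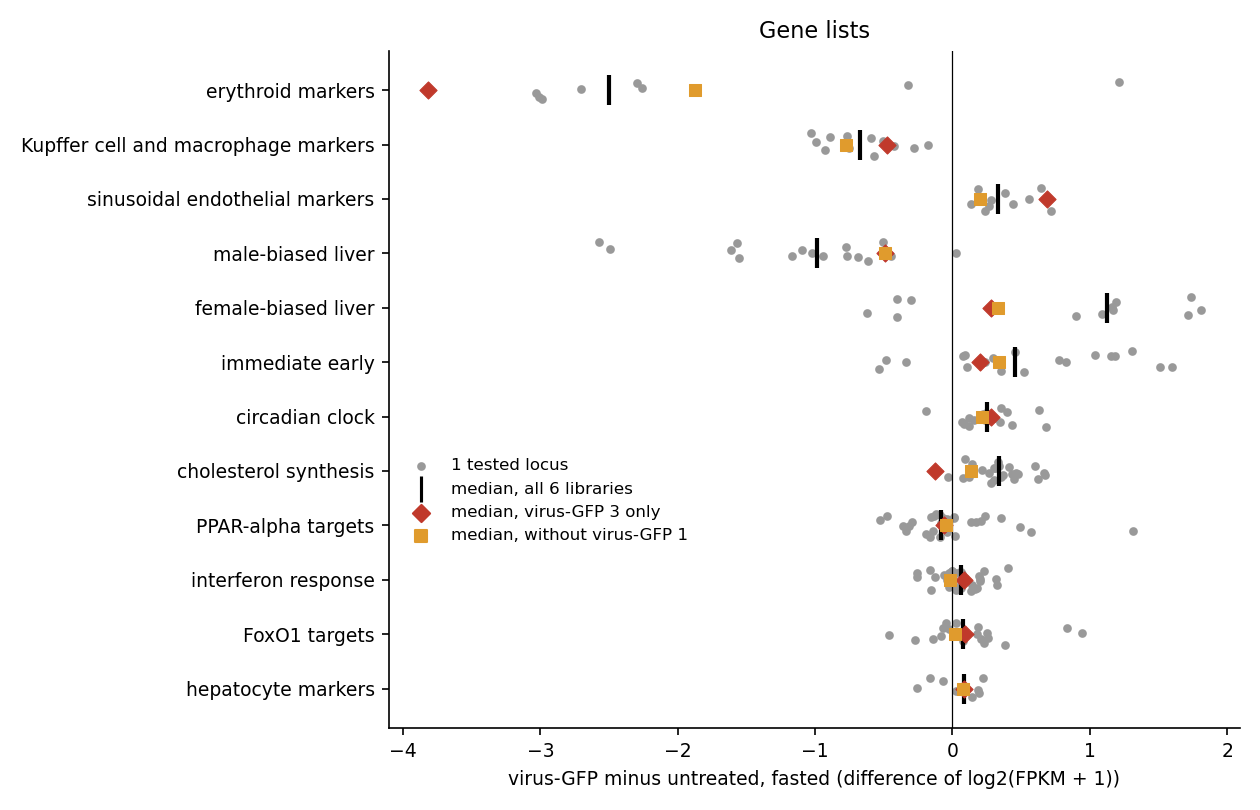
Virus-GFP minus untreated, fasted, as the difference of log2(FPKM + 1), for the tested members of 12 gene lists (grey points). Black bars are medians over all 6 libraries, red diamonds medians with virus-GFP liver 3 as the only library of its group, and orange squares medians without virus-GFP liver 1: for cholesterol synthesis the diamond lies at -0.12 against a bar at 0.34, and for erythroid markers at -3.82 against -2.50.

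The largest differences were not among the calls. Of 101 loci at 1 or more from equal on the log2 scale (0.946% of those tested), 35 were small nucleolar, micro or small nuclear RNA loci. Snora31, chosen after its values were seen, was listed at 0 in all 3 virus-GFP livers and at 33.8, 68.1 and 91.1 FPKM in untreated livers, values that stand for 1 to 3 implied fragments. Cyp2c39, a cytochrome P450 of the Cyp2c cluster that was chosen in the same way, measured 142, 101 and 84.3 FPKM in virus-GFP livers and 0.974, 0.931 and 40.8 FPKM in untreated livers. It lay above the untreated range in all 3 virus-GFP livers and was not called, with values from 0.931 to 40.8 FPKM within the untreated group (4.31 ± 1.51 SE, limma adjusted p = 0.294).

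The same controls after 1 h of refeeding give the contrast a second time in other libraries. There limma called 101 of 10682 loci (0.946%), 83 higher and 18 lower in virus-GFP livers; with median-of-ratios scaling of the FPKM it called 103, of which 36 were higher. The count was 1 without refed untreated liver 2, 6 without refed untreated liver 3, 62 without refed virus-GFP liver 2 and 250 without refed untreated liver 1. Of the 11 fasted calls, 10 had the same sign refed and 4 were called in both states, which is 36.4% of the fasted and 3.96% of the refed calls. Those 4 loci are Ppap2a, Eef1e1 and the 2 copies of Hba-a1, which count as 1 observation.

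Ppap2a read 7.41, 8.01 and 7.53 FPKM in refed virus-GFP livers and 3.90, 3.81 and 4.51 FPKM in refed untreated livers (0.77 ± 0.12 SE, limma adjusted p = 0.0107), close to its fasted difference of 0.84. Eef1e1 read 11.1, 10.6 and 10.3 FPKM against 6.69, 7.04 and 8.61 FPKM (0.47 ± 0.10 SE, limma adjusted p = 0.0348). The first copy of Hba-a1 read 6.77, 36.4 and 17.0 FPKM against 118, 162 and 181 FPKM (-3.13 ± 0.58 SE, limma adjusted p = 0.0168). In all 3 genes the refed groups did not overlap either.

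Cyp2g1 and Clstn3 were not called in refed livers. Cyp2g1 was at 1.32, 1.38 and 2.58 FPKM in refed virus-GFP livers against 2.29, 1.09 and 1.73 FPKM (0.02 ± 0.19 SE, limma adjusted p = 0.959). Clstn3 was at 2.11, 1.56 and 1.49 FPKM against 1.69, 1.01 and 1.21 FPKM, so its sign turned (0.24 ± 0.14 SE, limma adjusted p = 0.370). Neither of these shifts passed the test of the difference between states.

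In refed livers the lists had the following values, and no list member was called in the test of the difference between states. Male-biased genes had a refed median of -1.24 with 16 of 16 below 0 and 2 called (Cyp2d9 and Mup20; 0.169% of all loci were called lower), and macrophage markers -0.47 with 11 of 12 below 0. Cholesterol synthesis genes had 0.63 with 2 called higher (0.777% of all loci). Erythroid markers had -2.15 with 8 of 8 below 0 and 2 called lower, both Hba-a1. Female-biased genes had 0.50 with 8 above 0, 4 below and none called. Calls higher were also held by fatty acid synthesis (2), pericentral hepatocyte (2) and complement and coagulation genes (1). Lipoprotein, bile acid and hepatocyte marker lists each held 1 call lower. Immediate early genes had 0.04, and PPAR-alpha targets 0.28 with 26 of 29 above 0, beside a refed median of 0.08 over all loci. Cyp2b13 was again uneven among virus-GFP livers, at 0.254, 62.4 and 93.3 FPKM refed, with at most 0.290 FPKM in refed untreated livers.

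The difference between states was tested directly, as the fasted contrast minus the refed one. It called 1 locus of 10682 (0.00936%), Nab1, with 1005 at an unadjusted p under 0.05. Nab1, a corepressor that binds and restrains EGR factors, read 2.90, 3.38 and 2.76 FPKM in fasted virus-GFP livers and 2.13, 2.65 and 3.08 FPKM in fasted untreated livers, with overlap (0.15 ± 0.16 SE, limma adjusted p = 0.725). In refed virus-GFP livers it read 2.39, 1.80 and 2.03 FPKM against 7.54, 9.07 and 9.20 FPKM in refed untreated livers, far apart (-1.64 ± 0.16 SE, limma adjusted p = 2.18e-05). The 2 contrasts differed by 1.80 ± 0.22 SE (limma adjusted p = 0.0013).

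**Figure D5:**
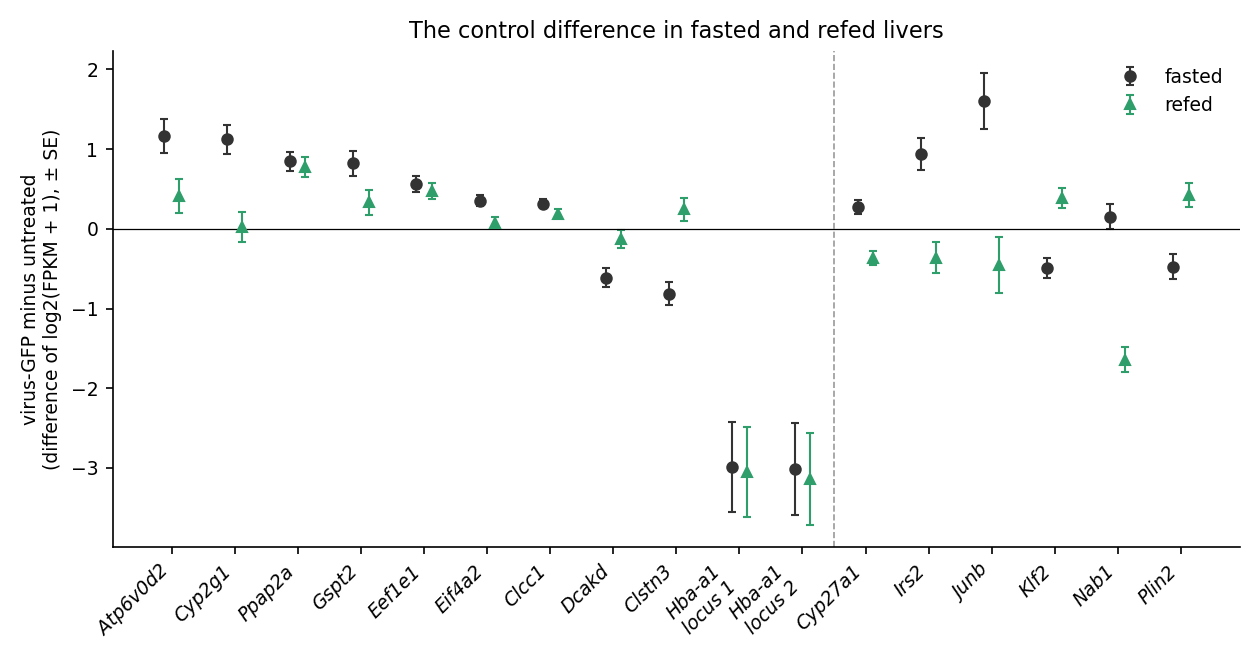
Virus-GFP minus untreated as the difference of log2(FPKM + 1), with SE, in fasted (black circles) and refed (green triangles) livers: left of the dashed line, the 11 loci called in fasted livers; right of it, 6 genes whose fasted and refed differences lie on opposite sides of 0. Ppap2a, Eef1e1 and Hba-a1 lie at nearly the same difference in both states, and Nab1 falls from 0.15 to -1.64.

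The stretch of 250 bases before the annotated start is shown for 4 genes chosen after their values and motif matches were seen. Of these, Nab1 was called in the refed control contrast, and Irs2, Junb and Btg2 were called in neither state. Each does not overlap between the groups in one feeding state and overlaps in the other, and each holds a motif of a factor named above. The sequences are from RefSeq on GRCm38.p6, the assembly behind the authors' mm10, 5′ to 3′ on the gene's strand, with motif matches on either strand in capitals. The motifs searched were the FoxO core TGTTTAC, the insulin response element core TGTTTTG, the EGR site GCGNGGGCG and the cyclic AMP response element TGACGTCA. Irs2 (chr8:11008930-11009179, minus strand) has TGTTTTG from base 37 to base 31 before its start, Junb (chr8:84978749-84978998, minus strand) has TGTTTAC from 135 to 129, Btg2 (chr1:134079156-134079405, minus strand) has a cyclic AMP element from 166 to 159 and an EGR site from 131 to 123, and Nab1 (chr1:52500449-52500698, minus strand) has 3 EGR sites, the first of them on the opposite strand.
Irs2: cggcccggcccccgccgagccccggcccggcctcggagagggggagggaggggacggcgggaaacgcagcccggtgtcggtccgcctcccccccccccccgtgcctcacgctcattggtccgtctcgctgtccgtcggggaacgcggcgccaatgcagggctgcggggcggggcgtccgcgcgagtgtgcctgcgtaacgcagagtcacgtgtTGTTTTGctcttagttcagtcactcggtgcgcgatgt
Junb: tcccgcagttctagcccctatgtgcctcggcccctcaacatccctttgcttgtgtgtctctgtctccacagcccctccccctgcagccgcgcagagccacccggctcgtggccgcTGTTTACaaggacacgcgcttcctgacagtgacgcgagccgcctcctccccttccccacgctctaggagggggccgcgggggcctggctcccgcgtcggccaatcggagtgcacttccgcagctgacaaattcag
Btg2: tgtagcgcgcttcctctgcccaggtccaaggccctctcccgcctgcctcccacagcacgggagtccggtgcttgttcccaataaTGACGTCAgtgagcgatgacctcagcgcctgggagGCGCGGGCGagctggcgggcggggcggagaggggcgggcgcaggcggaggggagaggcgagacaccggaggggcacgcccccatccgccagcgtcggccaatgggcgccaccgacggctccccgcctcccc
Nab1: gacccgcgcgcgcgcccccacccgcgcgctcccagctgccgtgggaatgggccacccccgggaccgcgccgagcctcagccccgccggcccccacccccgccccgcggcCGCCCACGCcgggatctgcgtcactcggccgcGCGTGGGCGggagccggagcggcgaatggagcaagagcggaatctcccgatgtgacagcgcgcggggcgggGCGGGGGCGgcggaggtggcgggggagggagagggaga

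Windows of this length hold TGTTTAC in 3.17% of the 32851 RefSeq promoters, TGTTTTG in 5.56%, the EGR site in 4.70% and the cyclic AMP element in 1.55%. A match is a description of the letters in the window and does not show binding. The motifs do not overlap one another in the windows shown.

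The livers with FoxO1 deleted hold the same pair of models, virus-Cre against Albumin-cre, in libraries that share no sample with the controls. This pair does not repeat the control contrast. Its virus carries Cre in place of GFP, and FoxO1 was deleted by the virus in one model and by the transgene in the other. Ppap2a was not apart there when fasted, at 4.57, 4.31 and 3.89 FPKM with the virus against 5.56, 4.05 and 4.64 FPKM (-0.12 ± 0.12 SE, limma adjusted p = 0.658). The first copy of Hba-a1 read 123, 75.3 and 50.6 FPKM against 211, 310 and 107 FPKM, lower on average with overlap (-1.29, limma adjusted p = 0.255). Gspt2 was at 0.0927, 0.181 and 0.0802 FPKM against 0.141, 0.120 and 0.218 FPKM, near the untreated controls in both. None of the 11 fasted control calls was called in this pair. Across all loci 1.55% were called in this pair, 0.524% higher with the virus and 1.03% lower. Egr1 was among them, at 20.4, 21.0 and 33.4 FPKM with the virus against 3.90, 3.57 and 3.07 FPKM (2.49 ± 0.38 SE, limma adjusted p = 0.0042), and so were Jun and Btg2, all 3 named after their values were seen.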

How the data were processed

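Each deposited file gives 1 FPKM value per gene locus with the authors' confidence bounds, in the Cufflinks tracking format per the file headers. HISAT2, Cufflinks and Cuffdiff with build mm10 are named in the submitters' processing notes, without versions, and how strand was used in counting is not stated there. The kit was TruSeq Stranded mRNA per the labels' protocols. FPKM are not counts, so no count test was run. Of 23746 loci, 14 carry a failed status in 1 or more libraries and were dropped.

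Fragments per locus were derived from the upper bound, taken as 2 standard deviations above the value, and relative depth from the FPKM of 1 fragment at 1933 low loci. Of values at 10 or fewer implied fragments, 65.2% to 66.3% per library in the 6 libraries came within 0.05 of a whole number. The implied fragments are therefore approximate. The fit was limma 3.58.1 (lmFit, trended eBayes, R 4.3.3) on log2(FPKM + 1) of all 24 libraries with 8 group coefficients, over loci with at least 1 FPKM in 3 or more libraries. Sums and depths were compared by exact permutation. Alternatives were other pseudocounts, filters, scalings, sample sets, weights, thresholds, a replicate block, a depth term and leaving out libraries. The code was tested on simulated data.

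The members and the 50 gene lists were chosen with earlier results of these data known. Genes named in every case were Foxo1, Foxo3, G6pc, Pck1, Igfbp1, Irs2, Ppargc1a, Fgf21, Cyp7a1, Srebf1 and Alb. Others were all 11 calls, the call of the state difference and, for lists without a call, members of high level; the remaining list members, and the comparison of the FoxO1-deleted livers, were chosen after their values were seen. Of 744 list entries 726 are in the files, 8 of them through RefSeq synonyms, and none of the mitochondrially encoded genes is.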

Additional observations from a re-analysis of the deposited data

Results flagged for a closer look

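Nab1 is listed because its control difference, virus-GFP minus untreated, differed between the feeding states in a direct test: by 1.80 on the log2 scale (limma adjusted p = 0.0013), the only locus of 10682 to do so. Among the genes followed singly, 3 others changed side between the feeding states. Every virus-GFP value lay on one side of the untreated values in fasted livers and on the other side in refed livers. No test of the difference bears this out, and the share of all loci that change side in this way is not given here.

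Plin2, the lipid droplet coat protein, differed by -0.48 fasted and by 0.42 refed (difference between states, limma adjusted p = 0.244). Klf2 differed by -0.49 fasted and by 0.39 refed (limma adjusted p = 0.163). Cyp27a1, a sterol hydroxylase of bile acid synthesis, differed by 0.27 fasted, at 285, 299 and 327 FPKM against 263, 245 and 246 FPKM, and by -0.37 refed, where it was called lower (limma adjusted p = 0.0482; difference between states, limma adjusted p = 0.134).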

How the results depend on the processing

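The 11 calls in fasted livers are those of the main fit. A pseudocount of 0.1 gave 2 calls, no filter on low values 3 and the filter at 10 FPKM 6. Median-of-ratios scaling gave 3, the 6 libraries alone 2, the 12 control libraries alone 2 and array weights 18. A threshold of 0.01 gave 0 and the depth term 5. These are counts of loci called in each fit, not of calls kept. Leaving out 1 library gave 0 to 14 calls: 0 without virus-GFP liver 1, untreated liver 1 or untreated liver 2, and 3 without untreated liver 3. None of the 11 called loci changed sign under a setting in which it was tested. Their groups did not overlap, so leaving out libraries could not change it, and they are not comparable with other loci in this. Of 181 other loci followed singly, 55 changed sign in 1 or more settings, without a call on the other side. Idi1 (0.60) and Pck1 (-0.03) are examples, at -0.30 and 0.07 with the depth-matched library alone.

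The replicate block gave 6 fasted calls. Same-numbered fasted libraries did not deviate together across loci as a whole (r = -0.092, -0.066 and -0.015). That gives no sign that the numbers pair the samples, but cannot exclude an order shared by part of the genes. The block gave 100 refed calls and 1 for the state difference.

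The 101 refed calls became 57 without the filter, 12 in the 12 control libraries alone, 2 at a threshold of 0.01 and 183 with the depth term. They ran from 1 to 250 when 1 library was left out: 62 without virus-GFP liver 2, 250 without untreated liver 1, 1 without untreated liver 2 and 6 without untreated liver 3, all refed. The state difference gave 3 calls in the 12 control libraries alone and 1 to 3 when 1 library was left out, with 3 without fasted virus-GFP liver 3 or refed virus-GFP liver 2.

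Loci with few fragments limit the comparison. Below 100 mean fragments, 1.98% of 2733 loci were 1 or more apart on the log2 scale. The share was 0.540% of 6480 loci with 100 to 1000 and 0.817% of 1469 loci above that, so it did not fall steadily.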
